A study of Tupaia belangeri with 6 samples.

Results

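Oligodendrocyte precursor cells (OPCs), also called NG2 glia, are the dividing glia of the adult brain that give rise to myelinating oligodendrocytes. They carry the PDGF receptor PDGFRA and a coat of proteoglycans such as VCAN, and they receive synaptic input from neurons through glutamate and GABA receptors. BCAS1, a protein of the myelin-forming lineage, marks precursors that have committed to becoming oligodendrocytes and oligodendrocytes at the start of myelination. OPC nuclei in which BCAS1 was not counted are described here for the hippocampus of the tree shrew (TS, Tupaia belangeri).

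Single-nucleus RNA sequencing with the 10x 3′ v3.1 kit was performed on 3 control and 3 ALP (Alzheimer's-like pathology) hippocampi, 1 library per TS. ALP TSs were aged animals chosen by their slow passage through a maze of pipes, control TSs were healthy animals matched for age, and the sources name no transgene or treatment in either group. The labels give neither age nor sex for the single animals, and the ALP state arose by natural senescence and not by a defined allele or dose. In all nuclei together the libraries of Control 1, 2 and 3 held 32679011, 19748976 and 35898940 UMIs (unique molecular identifiers, 1 per captured RNA molecule), and those of ALP 1, 2 and 3 held 20119934, 30520809 and 19182981.

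OPC nuclei were chosen by their counts: at least 200 genes detected, at least 1 UMI of PDGFRA or VCAN, at least 4 UMIs of PDGFRA, VCAN and LHFPL3 together, and none of MOG, AQP4, PTPRC, GAD1 and NEUROD6, which mark oligodendrocytes, astrocytes, microglia, inhibitory and excitatory neurons. Of 37603 nuclei, 2625 met this rule, and the 948 without a BCAS1 UMI (2.52% of all nuclei and 36.1% of the OPC nuclei) are the nuclei described. Control 1, 2 and 3 contributed 239, 85 and 179 of them, and ALP 1, 2 and 3 contributed 131, 154 and 160. Their median depth was 1912 UMIs and 1145 genes per nucleus. None of their barcodes occurred in more than 1 library. The genes of the rule have values by construction and are given below as description only.

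Most of the 948 nuclei had more UMIs of OPC genes than of neuronal genes, but about 1 in every 4 did not. OLIG1 and OLIG2, the transcription factors that specify the oligodendrocyte lineage, had a UMI in 51.6% (95% Wilson interval 48.4 to 54.8) and 23.1% (20.5 to 25.9) of the nuclei. PTPRZ1, a receptor phosphatase of OPCs, and PCDH15, a protocadherin of OPCs, had a UMI in 88.2% and 89.8%. SYT1 and SNAP25, proteins of the synaptic vesicle machinery of neurons, were nevertheless counted in 37.9% and 32.8%. These intervals cover counting error only.

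The nuclei were therefore split, after the data had been seen, by whether the UMIs of PTPRZ1, PCDH15, OLIG1, OLIG2 and SOX10 together outnumbered those of SYT1 and SNAP25. By this measure 728 nuclei (76.8%) were OPC-dominant, 194, 46 and 126 from Control 1, 2 and 3 and 104, 117 and 141 from ALP 1, 2 and 3. The other 220 (23.2%) were neuron-rich, 45, 39 and 53 from the controls and 27, 37 and 19 from ALP. The split is a cut through a range and not a cell type, and 27 nuclei lay within 2 UMIs of it. Neuron-rich nuclei were deep, with a median of 6933 UMIs against 1727, and so held 55.3% of all UMIs of the 948 nuclei. Whether some of them were droplets with 2 nuclei was not tested.

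In the 728 OPC-dominant nuclei OLIG1 was counted in 64.6%, OLIG2 in 29.3%, SOX10 in 13.6%, PTPRZ1 in 99.2% and PCDH15 in 98.1%, all genes that the split used. PDGFRA, a gene of the rule, was counted in 51.1% of them and VCAN in 92.6%. Of genes that neither the rule nor the split used, NXPH1, a neurexin ligand, was counted in 92.2% and C1QL1, a secreted synaptic organiser made by OPCs, in 15.2%. In the 220 neuron-rich nuclei the rule was met mostly through VCAN and LHFPL3, with a UMI in 95.9% and 93.2% and 453 and 1497 UMIs in all, while PDGFRA had a UMI in 9.55%. OLIG1 was counted in 8.64% and C1QL1 in 2.73%. NXPH1 was counted in the neuron-rich nuclei too, with 456, 464 and 470 UMIs in Control 1, 2 and 3. In ALP 1, 2 and 3 they held 212, 443 and 134 NXPH1 UMIs. The same nuclei showed CNR1, the cannabinoid receptor of a class of inhibitory neurons, in 47.3%, the homeobox gene DLX6 in 43.2%, and the neuropeptide genes SST and VIP in 16.8% and 15.0%. In OPC-dominant nuclei these 4 genes were counted in 2.06%, 0.549%, 2.34% and 1.10%, close to the 3.26%, 1.14%, 3.23% and 1.08% in 3066 oligodendrocyte nuclei with at least 2 MOG UMIs and a median of 1610 UMIs. By C1QL1, CNR1, DLX6, SST and VIP, which the split did not use, the label of OPC thus fitted the OPC-dominant nuclei and not the neuron-rich ones.

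**Figure D1:**
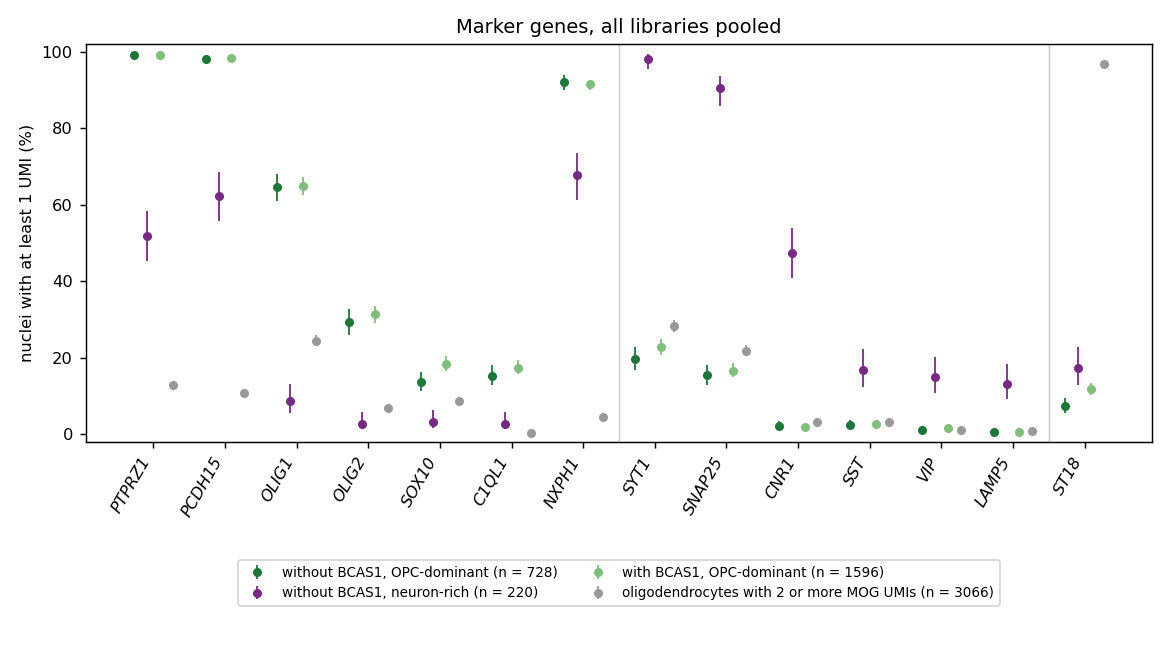
Share of nuclei with at least 1 UMI (y axis, percent) for 14 genes (x axis) in the 728 OPC-dominant and 220 neuron-rich nuclei without BCAS1, in the 1596 OPC-dominant nuclei with BCAS1 and in 3066 oligodendrocyte nuclei; points are shares over the pooled libraries and bars are 95% Wilson intervals. OPC-dominant nuclei with and without BCAS1 lie close to each other, while neuron-rich nuclei are high in SYT1 (98.2%), SNAP25 (90.5%) and CNR1 (47.3%) and low in OLIG1 (8.64%). The split used SYT1, SNAP25 and OLIG1, so that their contrast was set by it, and did not use CNR1.

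GAD1, by which the rule leaves out inhibitory neurons, was counted in only 0.268 to 1.59% of the nuclei of a library and in 237 nuclei in all. GAD2 and SLC32A1, further defining genes of inhibitory neurons, had no UMI in any of the 37603 nuclei, which allows a share of up to 0.00798% of nuclei with a UMI. The same was true of GPR17, the receptor of committed precursors, and of the proliferation gene MKI67, while CSPG4, which encodes the NG2 proteoglycan, had 37 UMIs in all nuclei, MBP had 22 and TOP2A had 72. Division and the GPR17 stage could therefore not be read from these libraries.

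The lowest step of the rule admitted mostly neuron-rich nuclei. Nuclei just inside it, with a sum of 4 UMIs of PDGFRA, VCAN and LHFPL3, numbered 63, of which 23.8% were OPC-dominant and 17.5% had an OLIG1 UMI. The 95 nuclei just outside, with a sum of 3, were OPC-dominant in 10.5% and had OLIG1 in 13.7%, and SYT1 was counted in 89.5% of them. At a sum of 6 the OPC-dominant share was 56.3% of 71 nuclei.

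The 20 features outside the rule that stood highest in the OPC-dominant nuclei over all nuclei outside the OPC rule, in every library and given here as description, held 8 named genes. CALCRL, the receptor for adrenomedullin and CGRP, was 19.1 to 37.9 times as high in CPM (UMIs scaled to the same total, 1 CPM added to both sides), with a median over libraries of 28.9. ITGA9, an integrin subunit that binds tenascins, was 18.2 to 26.1 times as high, and LAMA4, a laminin chain, 22.4 to 49.2 times. CACNG4, an auxiliary subunit of AMPA receptors, was 18.8 to 42.6 times as high, and NTN1, the guidance cue netrin-1, a median of 22.1 times. CAV2, AFAP1L2, PUSL1 and 12 features named as LINC, antisense or open reading frame filled the other places among the 20. The neuron-rich nuclei were led by other genes, among them EPHA3 (3.73 to 5.24 times), DLX2 (3.40 to 10.5 times), ADARB2 (3.34 to 8.19 times) and OPRM1, the mu opioid receptor (3.17 to 5.98 times).

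The first comparison asked whether the nuclei without BCAS1 made up a different share of the hippocampus in ALP. The groups could not be told apart by this test: the share was 2.72, 2.82 and 2.25% of all nuclei in Control 1, 2 and 3 and 2.57, 2.15 and 2.86% in ALP 1, 2 and 3. The groups overlapped, with means of 2.60 ± 0.308% and 2.53 ± 0.355% (SD, n = 3 each), and the difference of -0.0679 percentage points had an exact two-sided permutation p of 0.8, where 0.1 is the smallest p that 3 against 3 libraries allow. Thinned to 2000 UMIs per nucleus, which leaves out shallower nuclei, the shares were 3.12, 1.13 and 2.51% in control and 0.810, 1.17 and 0.926% in ALP, a difference of -1.28 percentage points between groups that overlapped (exact permutation p = 0.2). In the OPC-dominant nuclei alone the shares were 2.21, 1.53 and 1.58% in control and 2.04, 1.64 and 2.52% in ALP, so that the sign of the difference turned (0.294 percentage points, exact permutation p = 0.5).

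The share of OPC nuclei that carried BCAS1 was lower on average in ALP, but the groups overlapped. It was 69.0, 63.0 and 64.1% in Control 1, 2 and 3 and 55.1, 66.6 and 57.0% in ALP 1, 2 and 3. The means were 65.4 ± 3.21% and 59.6 ± 6.15% (SD, n = 3 each), a difference of -5.81 percentage points with an exact permutation p of 0.3. Among OPC-dominant nuclei the shares were 72.7, 73.9 and 70.5% against 59.8, 71.4 and 58.8%, where ALP 1 and ALP 3 lay below every control and ALP 2 lay within the control range (difference -9.02 percentage points, exact permutation p = 0.2).

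Depth moved with the group. OPC-dominant nuclei without BCAS1 had medians of 1910.5, 1840.5 and 2084.5 UMIs in the controls and 1358.5, 1670 and 1488 in ALP, without overlap. The share with BCAS1 was therefore counted again in thinned nuclei, and depth as a cause of its difference was not tested. With every nucleus thinned to 1000 UMIs and the rule applied again, the share with BCAS1 was 51.2, 55.5 and 44.4% in control and 46.8, 57.6 and 43.5% in ALP, a difference of -1.03 percentage points (exact permutation p = 0.9). Thinned to 2000 UMIs, which leaves out more nuclei, it was 67.1, 71.7 and 64.3% in control and 61.4, 66.2 and 63.5% in ALP, a difference of -4.03 percentage points (exact permutation p = 0.2), and the groups overlapped again. A UMI of BCAS1 was counted in 51.0% of oligodendrocyte nuclei, in 3.63% of 771 astrocyte nuclei (median 2154 UMIs) and in 4.87% of 411 microglial nuclei (median 1117 UMIs). The source of the BCAS1 UMIs in astrocyte and microglial nuclei was not tested. In the 2625 OPC nuclei 948 had no BCAS1 UMI, 708 had 1, 432 had 2, 234 had 3 and 303 had more, a falling series without a gap, so that a count of 0 does not show that the gene was off.

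**Figure D2:**
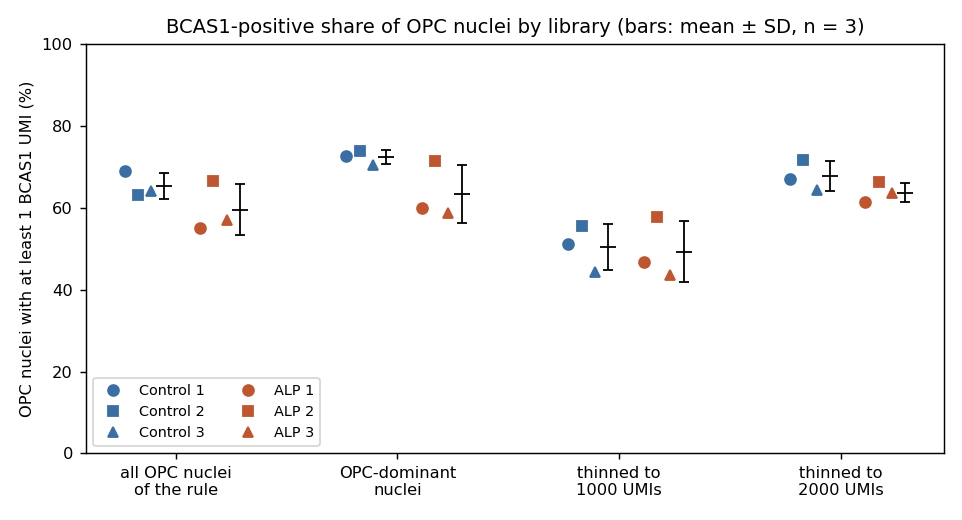
Share of OPC nuclei with at least 1 BCAS1 UMI (y axis, percent) in each library under 4 ways of counting (x axis); symbols are libraries, and bars are the mean ± SD of 3 libraries per group. ALP 1 and ALP 3 lie below all controls among the OPC-dominant nuclei, at 59.8% and 58.8%, and the 2 groups overlap after thinning to 1000 UMIs.

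The second comparison asked which genes differed between ALP and control in these nuclei, with UMIs summed per library and tested by edgeR over 3 against 3 libraries. Very few genes passed. In the 948 nuclei 3 of 6740 genes tested (0.0445%) had an adjusted p under 0.05, although 13.1% had an unadjusted p under 0.05: CST3, which encodes the secreted protease inhibitor cystatin C, rose, and the features LORF2li74 and GRIN3A-AS-1 fell. In the 728 OPC-dominant nuclei 2 of 4045 genes (0.0494%) passed, and both rose, CST3 and ROBO2. In the 220 neuron-rich nuclei edgeR called 0 of 4794 genes, with 532 at an unadjusted p under 0.05.

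CST3 was called in both sets. In the OPC-dominant nuclei it stood at 881, 1420.4 and 1171 CPM (counts-per-million, over the UMIs of the tested genes and with TMM scaling, the scale of all CPM below unless another is named) in Control 1, 2 and 3 and at 3475, 2320.0 and 2874 CPM in ALP 1, 2 and 3. Every ALP library lay above every control, and the log2 difference was 1.35 (SE 0.18, edgeR adjusted p = 0.00582). It was 1.71 (SE 0.23, edgeR adjusted p = 0.0435) over all 948 nuclei, from 507, 340.3 and 499 CPM to 1525, 1074 and 1824 CPM. The difference appeared both in the share of nuclei with CST3 and in nuclei with high counts. CST3 had a UMI in 65.5, 63.0 and 72.2% of OPC-dominant nuclei in control and in 81.7, 81.2 and 86.5% in ALP. Nuclei with at least 10 CST3 UMIs numbered 2, 0 and 1 in control, with 27 of 331, 0 of 98 and 18 of 252 CST3 UMIs, and 16, 12 and 14 in ALP, with 212 of 434, 141 of 435 and 185 of 557. Thinned to 1000 UMIs per nucleus, with 1 to 8 shallower nuclei left out per library, the shares with a CST3 UMI were 48.7, 46.7 and 51.2% and 69.8, 71.7 and 75.4%, again without overlap (exact permutation p = 0.1, the smallest possible).

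CST3 in OPC nuclei with BCAS1 also lay higher in every ALP library. Among OPC-dominant nuclei with BCAS1 it stood at 759, 1170 and 845 CPM in control and at 2220.5, 1783 and 2590.4 CPM in ALP, and the log2 difference of the ALP effect between nuclei without and with BCAS1 was 0.06 (SE 0.13, edgeR adjusted p = 0.993). The same 6 animals gave both sets of nuclei. In the neuron-rich nuclei without BCAS1 CST3 stood at 136, 118 and 132 CPM in control and 265, 202 and 464 CPM in ALP, again without overlap, a log2 difference of 1.22 (SE 0.29) that was not called (edgeR adjusted p = 0.121). In astrocytes, which express CST3 strongly, untrimmed CPM (over the UMIs of all features) were 2639, 1562 and 1406 in control and 3257, 2211 and 3634 in ALP, which overlap, and in all nuclei outside the OPC rule they were 446, 247 and 269 against 320, 296 and 530. The call in the OPC-dominant nuclei was lost without ALP 1 (edgeR adjusted p = 0.0836) or without ALP 3 (edgeR adjusted p = 0.0556), with the log2 difference between 1.17 and 1.49 over all 6 omissions. Over all 948 nuclei it was lost without Control 3 (edgeR adjusted p = 0.164), ALP 1 (0.222) or ALP 3 (0.441), with a sum of at least 6 UMIs (0.113) and with the replicate block (0.0596).

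Markers of astrocytes moved with the groups in these nuclei. The 5 astrocyte markers GFAP, SLC1A2, SLC1A3, AQP4 and GJA1 summed to 422, 422 and 419 untrimmed CPM in the OPC-dominant nuclei of Control 1, 2 and 3 and to 483, 603 and 520 in ALP 1, 2 and 3. SLC1A3, a glutamate transporter that OPCs also express, was the most abundant of them in each library, AQP4 was at 0 by the rule and GJA1 at 0 in every library but ALP 1. Their part in the CST3 result was not tested. SYT1 and SNAP25 together lay at 408, 199 and 427 untrimmed CPM in control and at 228, 348 and 349 in ALP, which overlap.

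ROBO2, a receptor for the SLIT guidance cues, rose in the OPC-dominant nuclei from 546, 304 and 507 CPM in Control 1, 2 and 3 to 1393, 976 and 991 CPM in ALP 1, 2 and 3. The groups did not overlap, and the log2 difference was 1.23 (SE 0.21, edgeR adjusted p = 0.046). The summed level rested on very few nuclei: 12 of 728 held 464 of the 884 ROBO2 UMIs, and 1 nucleus of ALP 1 held 100 of the 174 UMIs of its library and 1 of ALP 2 held 124 of 183. The share of nuclei with a ROBO2 UMI was 27.3, 37.0 and 37.3% in control and 37.5, 20.5 and 48.9% in ALP, which overlap, and they overlapped after thinning to 1000 UMIs as well (16.4, 28.9 and 21.1% against 33.3, 14.2 and 37.7%, exact permutation p = 0.5). The call held only without Control 1 or Control 2 among the 6 omissions of 1 library, where the edgeR adjusted p ranged from 0.0123 to 0.179. It was also lost with upper-quartile scaling (edgeR adjusted p = 0.0547). Over all 948 nuclei ROBO2 overlapped between the groups (log2 difference 0.07, edgeR adjusted p = 0.925). The neuron-rich nuclei held it at 3297 to 5444 untrimmed CPM, and their part in this overlap was not tested.

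The pair that fell over all 948 nuclei were not genes of known function. LORF2li74, a numbered copy of a repeat-derived reading frame, went from 69.2, 67.6 and 97.1 CPM in the controls to 19.1, 15.6 and 11.9 CPM in ALP (log2 difference -2.32, SE 0.34, edgeR adjusted p = 0.0435). GRIN3A-AS-1, annotated antisense to the NMDA receptor subunit gene GRIN3A, went from 39.3, 50.04 and 41.8 CPM to 3.18, 6.67 and 2.98 CPM (log2 difference -3.19, SE 0.47, edgeR adjusted p = 0.0435). Each call was lost without Control 3, ALP 1, ALP 2 or ALP 3 (edgeR adjusted p of 0.0977 to 0.458) and with the replicate block (edgeR adjusted p = 0.123). Over the 948 nuclei LORF2li74 had 51, 27 and 58 UMIs in Control 1, 2 and 3. In ALP 1, 2 and 3 it had 6, 7 and 4. The neuron-rich nuclei held 64 of 74 GRIN3A-AS-1 UMIs in control and 5 of 5 in ALP, and 89 of 136 LORF2li74 UMIs in control and 9 of 17 in ALP, where they held 58.8% and 49.97% of the UMIs of all features. In the OPC-dominant nuclei GRIN3A-AS-1 had too few counts to be tested, and LORF2li74 stood at 69.2, 72.5 and 74.3 against 24.0, 16.0 and 10.3 CPM, which was not called (edgeR adjusted p = 0.0816). Whether the counting used strand is not given in the sources used here, so its reads cannot be told apart from those of GRIN3A, and features named as antisense took 7.14, 6.35 and 9.42% of the UMIs of OPC-dominant nuclei in control and 5.29, 5.31 and 4.79% in ALP.

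Just past the threshold lay genes that the test did not call but whose groups did not overlap in the OPC-dominant nuclei. Background for such a pattern is 7.14% of the 4045 genes with every ALP library higher and 8.36% with every ALP library lower. CD9, a tetraspanin of the oligodendrocyte lineage, stood at 63.9, 116 and 69.7 CPM in control and 168, 176 and 273 CPM in ALP (log2 difference 1.4995, SE 0.30, edgeR adjusted p = 0.0682). CMTM5, a membrane protein of glia, stood at 261, 261 and 223 CPM against 680.5, 384 and 413 CPM (0.97, SE 0.24, edgeR adjusted p = 0.0918). TP53I3, an oxidoreductase induced by p53, had a log2 difference of 1.51 (edgeR adjusted p = 0.0778). On the other side lay SLC6A4, the serotonin transporter, at 104, 130.4 and 191 CPM against 32.0, 48.0 and 41.3 CPM (-1.75, SE 0.37, edgeR adjusted p = 0.0682), and MACROH2A1, a histone variant of silent chromatin, at 130.5, 203 and 181 CPM against 48.0, 64.0 and 61.9 CPM (-1.45, SE 0.31, edgeR adjusted p = 0.0682). EPN2, an endocytic adaptor, and ABHD2, a lipid hydrolase, had log2 differences of -0.72 each (edgeR adjusted p = 0.0816 and 0.0911).

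**Figure D3:**
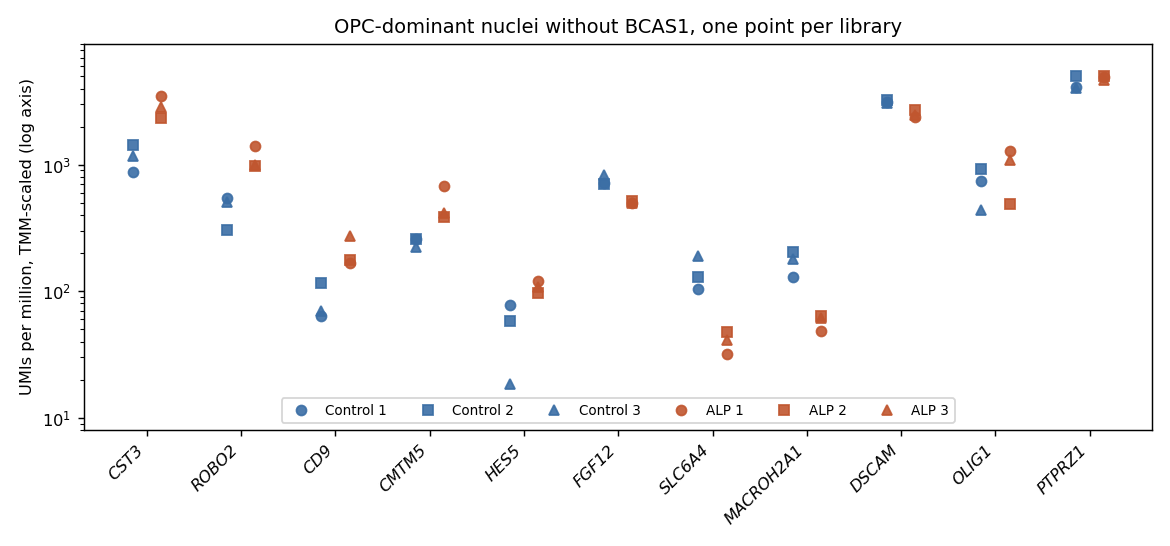
Level of 11 genes (x axis) in the OPC-dominant nuclei without BCAS1, in TMM-scaled CPM on a log axis (y axis), 1 symbol per library. CST3 and ROBO2, which passed the test, and CD9, CMTM5, HES5, FGF12, SLC6A4, MACROH2A1 and DSCAM, which did not, have no overlap between the 3 control and the 3 ALP libraries, while OLIG1 and PTPRZ1 overlap.

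The genes that define OPCs were not called between ALP and control. In the OPC-dominant nuclei 0 of 12 tested genes of the OPC identity list passed. One had an unadjusted p under 0.05 and was lower, where 6.35% of all 4045 genes had such a p and were lower, 5.39% were higher and 11.7% in all. Their median log2 difference was -0.02, beside 0.01 over all genes. That 1 gene was DSCAM, a cell adhesion molecule, at 3134, 3276 and 3062 CPM in control and 2402, 2688 and 2461 CPM in ALP (-0.32, SE 0.12, edgeR adjusted p = 0.310). The transcription factors SOX5, SOX6 and SOX8 had log2 differences of -0.20, 0.03 and 0.13. In DSCAM and SOX5, 2 of the 12, every ALP library lay below every control, as in 8.36% of all genes, with SOX5 at 2128, 2391 and 2193 against 1953, 1867 and 2002 CPM. The log2 difference of the matrix protein tenascin-R (TNR) was 0.02. Genes used in the split were no different: OLIG1 stood at 743, 928 and 437 CPM in control and 1289, 491 and 1099 CPM in ALP, PTPRZ1 at 4109, 5029 and 4038 against 4916, 5013 and 4701 CPM, and PCDH15 at 3803, 3667 and 3388 against 3619, 3429 and 3024 CPM. The groups overlapped at each of the 3. Of the rule's genes PDGFRA stood at 429, 551 and 493 against 536, 581 and 624 CPM and VCAN at 1624, 1507 and 1608 against 2017, 1413 and 2131 CPM, and both overlap. LHFPL3, the third of them, stood at 7560, 6290 and 6594 CPM in control and 6124, 5883 and 5155 CPM in ALP. Every ALP library lay below every control, given as description only because the rule used LHFPL3.

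Genes of the next steps of the lineage were thinly counted. Of 15 genes of committed precursors 5 were tested, none was called, and their median was -0.08. TCF7L2, a Wnt-pathway transcription factor of newly formed oligodendrocytes, had a log2 difference of 0.49 (SE 0.27) and FYN, a kinase that drives myelination, of -0.28 (SE 0.23, edgeR adjusted p = 0.696). In FYN and ITPR2, a calcium release channel, 2 of the 5, every ALP library lay below every control, as in 8.36% of all genes. Thinned to 1000 UMIs, FYN had a UMI in 14.3, 13.3 and 17.9% of OPC-dominant nuclei in control and in 12.5, 10.6 and 12.3% in ALP, also without overlap (exact permutation p = 0.1, the smallest possible). Of 17 myelin genes 5 were tested and none was called (median 0.03). ST18, a zinc finger transcription factor of oligodendrocytes, stood at 226, 72.5 and 97.6 CPM in control and 32.0, 80.0 and 98.0 CPM in ALP, which overlap (-1.04, edgeR adjusted p = 0.338). Its log2 difference ranged from -1.33 to -0.29 over the 6 omissions of 1 library. One of 21 cell cycle genes, CCND1 (0.37, SE 0.27), and 1 of 11 genes of quiescence and senescence, RB1 (-0.03, SE 0.29), had enough counts.

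Among the signals that keep OPCs dividing or push them to differentiate, none was called. Of 12 tested growth factor receptors 6 lay above and 6 below 0 (median 0.04), with FGFR1 at 0.97 (SE 0.53) and EPHB1 at -0.72 (SE 0.43). Of 4 tested growth factor genes FGF12, an intracellular member of the family that acts on sodium channels, stood at 719, 710.2 and 827 CPM in control and 496, 512 and 500.5 CPM in ALP (-0.58, SE 0.17, edgeR adjusted p = 0.159), without overlap. Of 8 tested genes of the Notch, Wnt, BMP and hedgehog pathways the median was 0.21. Of the Notch effectors among them HES5 stood at 77.2, 58.0 and 18.6 against 120.1, 96.0 and 108 CPM (0.99, SE 0.41, edgeR adjusted p = 0.369), without overlap. These levels rested on 29, 4 and 4 UMIs in control and 15, 18 and 21 in ALP. The log2 difference of HES5 ranged from 0.55 to 1.83 over the 6 omissions of 1 library. HES1 had a log2 difference of 0.99 (SE 0.47, edgeR adjusted p = 0.428).

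None of the tested receptors through which neurons signal to OPCs was called. None of 12 AMPA and kainate receptor genes passed (median 0.05): GRIA2 and GRIA4, pore subunits of AMPA receptors, had log2 differences of 0.42 (SE 0.22) and -0.08 (SE 0.20), and GRIK5, a kainate receptor subunit, stood at 125, 101 and 69.7 CPM in control and 64.0, 48.0 and 51.6 CPM in ALP (-0.91, SE 0.36, edgeR adjusted p = 0.356). None of 7 NMDA and metabotropic glutamate receptor genes passed (median 0.24), nor any of 8 GABA receptor genes (median 0.10), of which GABRB2 had the smallest p (0.67, SE 0.29, edgeR adjusted p = 0.386). Of 14 sodium and potassium channel genes none passed (median 0.09), and of 10 calcium channel genes none passed (median -0.04), with the channel subunits CACNA1A and CACNB4 at -0.58 and -0.65 and the calcium release channel RYR3 at 1.17 (edgeR adjusted p = 0.369 each).

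Of 25 tested genes of synaptic adhesion 19 lay below 0 and 6 above (median -0.07), none was called, and in 5 every ALP library lay below every control, as in 8.36% of all genes. DSCAML1, an adhesion molecule related to DSCAM, stood at 1212, 1029 and 985 CPM in control and 729, 811 and 862 CPM in ALP (-0.43, SE 0.16, edgeR adjusted p = 0.305), and LRRTM4, a postsynaptic organiser, at 5116, 4348 and 4912 CPM against 4123, 4075 and 3684 CPM (-0.28, SE 0.12, edgeR adjusted p = 0.369). Of 13 matrix and proteoglycan genes none passed (median -0.15), and of 9 axon guidance genes ROBO2 alone did, while its relative ROBO1 had a log2 difference of -0.27 (SE 0.15). The 4 tested genes of autophagy and lysosomes all lay below 0 (median -0.52) without a call, among them ATG7, an enzyme of autophagosome formation (-0.95, SE 0.38, edgeR adjusted p = 0.356). Of 3 stress genes the endoplasmic reticulum chaperone HSPA5 had a log2 difference of 0.82 (SE 0.39, edgeR adjusted p = 0.424). Of 23 genes of immunity and antigen presentation 2 were tested and none was called, among them B2M (-0.35, SE 0.43), and of 15 genes of cholesterol synthesis none had enough counts.

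Over all 948 nuclei, where the neuron-rich nuclei weigh on the sums, no gene of the 21 lists was called. The OPC identity list had 13 of 16 genes above 0 there (median 0.20, beside 0.00 over all genes), and the share of neuron-rich nuclei differed between libraries, from 19 of 160 nuclei in ALP 3 to 39 of 85 in Control 2. BSG, a chaperone of monocarboxylate transporters, and PPIB, a prolyl isomerase of the endoplasmic reticulum, were nearest to the threshold after the called genes, with log2 differences of 1.42 and 1.57 (edgeR adjusted p = 0.0754 each). Of the sex-linked list DDX3Y alone was tested. It had 19, 22 and 0 UMIs in Control 1, 2 and 3 and 0, 31 and 0 in ALP 1, 2 and 3. Libraries with and without its UMIs thus stood in both groups, but unevenly, with none in Control 3, ALP 1 and ALP 3. The fits held no term for sex, and its part in the differences between ALP and control was not tested.

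The third comparison set OPC nuclei without BCAS1 beside those with it, within the same 6 libraries, to see what goes with the absence of BCAS1. Taken by the rule alone, 742 genes (11.2% of 6638) were higher and 714 (10.8%) lower without BCAS1 by edgeR with the library as a term. The higher genes were led by those of the neuron-rich nuclei, which made up 23.2% of the nuclei without BCAS1 and 4.83% of the 1677 with it. OPRM1, EPHA3, THSD4 and DLX2 were higher by 3.12, 2.90, 2.76 and 2.67 on the log2 scale in 6 of 6 libraries. By the same contrast 16 of 17 tested OPC identity genes were lower (median -0.72), as were all 5 of committed precursors (median -1.05).

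With neuron-rich nuclei left out of both sets, few differences remained. Of 4684 genes tested between 728 nuclei without and 1596 with BCAS1, 5 (0.107%) were higher and 16 (0.342%) lower without BCAS1, and 16 of these 21 genes had been called by the rule alone too. Of the OPC identity genes 1 of 12 was called, 6 lay below 0 and 6 above, and their median was -0.03. OLIG1 and PTPRZ1, which the split used, had log2 differences of 0.13 (SE 0.08) and -0.01 (SE 0.05). Nuclei without BCAS1 were shallower, with a median of 1727 UMIs against 1970. With nuclei of 2000 to 10000 UMIs alone 11 of 2519 genes tested were called. That window kept only 88, 14 and 72 nuclei without BCAS1 in Control 1, 2 and 3. In ALP 1, 2 and 3 it kept 9, 24 and 18. Depth as a cause of calls lost in this window was not tested.

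**Figure D4:**
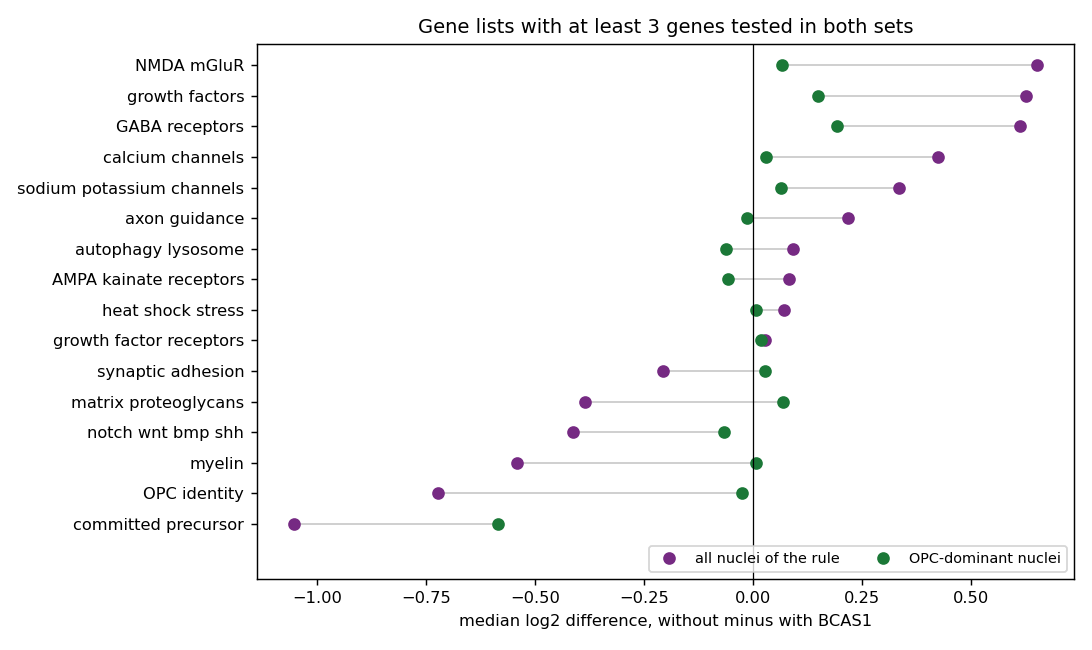
Median log2 difference between OPC nuclei without and with BCAS1 (x axis, negative where lower without) over the tested genes of 16 lists (y axis), for all nuclei of the rule and for the OPC-dominant nuclei. With the neuron-rich nuclei left out the OPC identity list moves from -0.72 to -0.03 and the GABA receptor list from 0.61 to 0.19, and the committed precursor list stays lowest at -0.59.

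Of 15 genes of commitment to the oligodendrocyte fate 5 were tested between nuclei without and with BCAS1. All 5 lay below 0 (median -0.59, beside 0.01 over all genes), and 2 of them were called lower, as were 0.342% of all 4684 genes. TCF7L2 stood at 140.1, 71.0, 133, 189, 207 and 137 CPM without BCAS1 in Control 1 to 3 and ALP 1 to 3, and at 176, 141, 207, 299.8, 269 and 279 CPM with it. It was lower without BCAS1 in 6 of 6 libraries, where 2.24% of all genes were (log2 difference -0.59, SE 0.13, edgeR adjusted p = 0.013), but the call was lost without Control 3 (edgeR adjusted p = 0.0748), without ALP 3 (edgeR adjusted p = 0.169) and with DESeq2 (adjusted p = 0.818). FYN was lower in 6 of 6 libraries, at 134 to 192 CPM against 197 to 311 CPM (-0.60, SE 0.13, edgeR adjusted p = 0.00434), and its call was lost without Control 3 (edgeR adjusted p = 0.069) and with DESeq2 (adjusted p = 0.553). PLLP, a membrane protein of myelin, had a log2 difference of -0.71 (SE 0.21) and ITPR2 of -0.12 (SE 0.08), and neither was called.

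Of 6 myelin genes ST18 was called, where 0.342% of all 4684 genes were called lower. It stood at 31.5 to 220.5 CPM without BCAS1 and 119 to 299 CPM with it, lower in 6 of 6 libraries (-0.95, SE 0.17, edgeR adjusted p = 0.000303). Few nuclei held it, 53 of 728 without BCAS1 and 189 of 1596 with it. At least 10 ST18 UMIs were found in 3 and 19 nuclei, which held 49 of 149 and 293 of 746 UMIs. The ST18 call was lost in nuclei of 2000 to 10000 UMIs (edgeR adjusted p = 0.215). NFASC, an adhesion molecule of the axon-glia junction, was lower by 0.64 on the log2 scale, and EPB41L2, a scaffold of the membrane skeleton, by 0.97 (SE 0.17), both in 6 of 6 libraries. SOX6, a transcription factor that holds OPCs in the precursor state, was lower without BCAS1 as well, at 1022 to 1351 CPM against 1275 to 1713 CPM in 6 of 6 libraries (-0.31, SE 0.06, edgeR adjusted p = 0.00216), a call that DESeq2 did not make (adjusted p = 1.00). BCAS1li1, a numbered copy of BCAS1 whose reads may be shared with it, was lower by 0.86 on the log2 scale but in 3 of 6 libraries only. In nuclei thinned to 1000 UMIs the sets were compared within each library. FYN had a UMI in a mean of 13.5% of nuclei without and 17.7% with BCAS1, lower without it in 6 of 6 libraries (difference -4.23 ± 1.90 percentage points, SD of 6 libraries). TCF7L2 had one in 14.0% and 15.0% and was lower in 4 of 6 (-1.03 ± 3.32), ST18 in 4.11% and 6.63%, lower in 4 of 6 (-2.53 ± 3.19), and SOX10 in 9.24% and 9.03%, lower in 2 of 6 (0.216 ± 1.66).

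**Figure D5:**
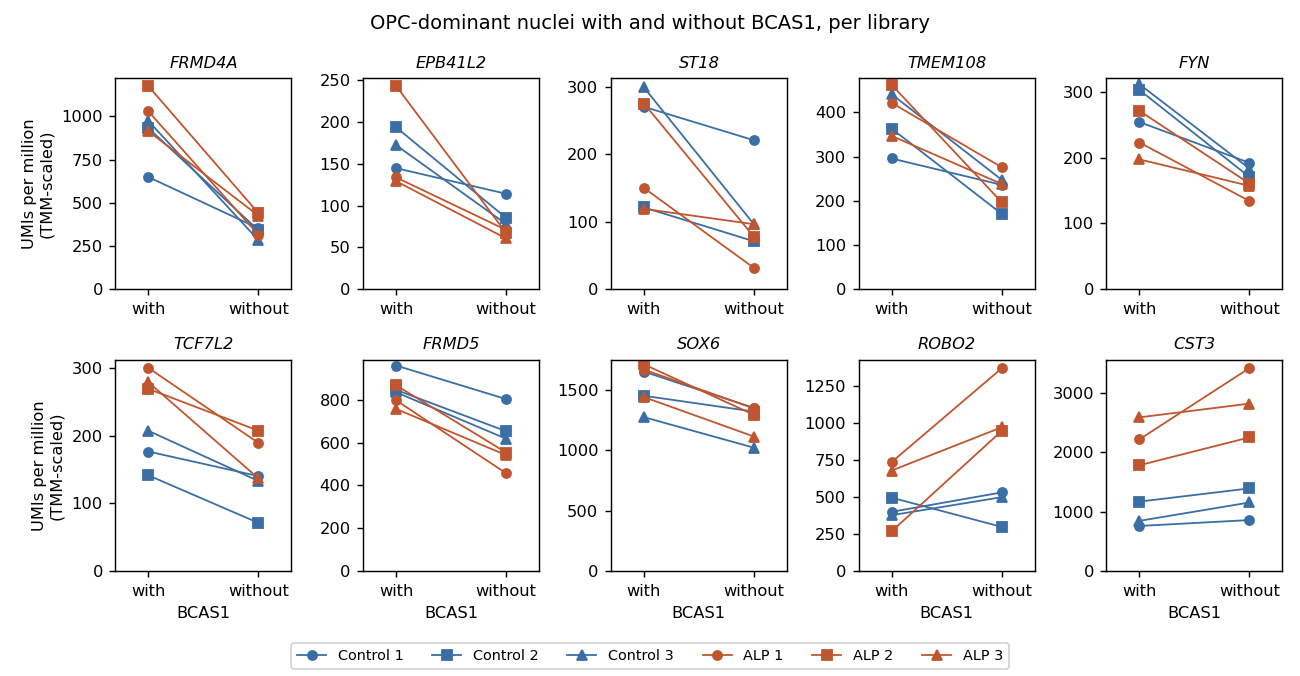
Level of 10 genes (TMM-scaled CPM, y axes starting at 0) in OPC-dominant nuclei with and without BCAS1 (x axes), with lines that join the 2 values of 1 library. FRMD4A, EPB41L2, ST18, TMEM108, FYN, TCF7L2, FRMD5 and SOX6 are lower without BCAS1 in 6 of 6 libraries, CST3 is higher in 6 of 6 and ROBO2 in 5 of 6.

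The lowest p belonged to FRMD4A, a scaffold protein of cell polarity. It stood at 353, 341, 284, 315, 440.2 and 426 CPM without BCAS1 and at 649, 932, 973, 1029, 1175 and 914 CPM with it in Control 1 to 3 and ALP 1 to 3 (-1.34, SE 0.10, edgeR adjusted p = 8.62e-17). As with ROBO2, few nuclei carried the difference: 45 of 1596 nuclei with BCAS1 had at least 10 FRMD4A UMIs and held 1684 of 2722, while 2 of 728 without BCAS1 did and held 30 of 431. A UMI of FRMD4A was found in 34.3% of nuclei without and 40.7% of those with BCAS1, and in a mean of 22.0% and 25.2% after thinning to 1000 UMIs, lower without BCAS1 in 5 of 6 libraries (difference -3.27 ± 8.19 percentage points, SD of 6 libraries). The antisense feature FRMD4A-AS-8 had 13 UMIs in 11 of 728 nuclei and 456 UMIs in 82 of 1596, and its reads cannot be told apart from those of FRMD4A. The membrane protein gene TMEM108, the scaffold FRMD5, the potassium channel KCNH8 and the phosphatase subunit PPP2R2B were lower in 6 of 6 libraries, by 0.71, 0.47, 0.32 and 0.27 on the log2 scale, and GRIA4 (-0.34) and the glycosyltransferase gene GALNTL6 (-0.91) in 5 of 6.

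The 5 features higher without BCAS1 were CST3, ROBO2, the adhesion protein FLRT2, the mitochondrial import pore TOMM40 and the feature UBE2E1-AS-3. CST3 was higher by 0.33 on the log2 scale (SE 0.06, edgeR adjusted p = 0.00127) in 6 of 6 libraries, where 1.75% of all genes were. This call was lost in nuclei of 2000 to 10000 UMIs (edgeR adjusted p = 0.882), without the low-count filter (edgeR adjusted p = 0.515) and with DESeq2 (adjusted p = 0.818). FLRT2 (0.68, SE 0.16), TOMM40 (0.43, SE 0.10) and ROBO2 (0.67, SE 0.12) were higher in 5 of 6. UBE2E1-AS-3 was higher in 4 of 6 and lower without BCAS1 in Control 2 and Control 3. Its call was lost without ALP 2 and without ALP 3. Of the 21 called genes 10 were called in every omission of 1 library, among them FRMD4A, EPB41L2, ST18, TMEM108, SOX6 and CST3, while NFASC, KCNH8, GRIA4, FLRT2 and TOMM40 were called in 2 of 6 omissions each. DESeq2 called 5 genes, all lower without BCAS1, which were FRMD4A, FRMD4A-AS-8, EPB41L2, ST18 and TMEM108.

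The last comparison asked whether the difference between ALP and control was itself different in nuclei without and with BCAS1. By the rule edgeR called 0 of 6638 genes (0%), with 302 at an unadjusted p under 0.05 and 0 called by DESeq2. In the OPC-dominant nuclei 1 of 4684 (0.0213%) was called, UBE2E1-AS-3, annotated antisense to a gene of a ubiquitin-conjugating enzyme, whose reads it may share. Without BCAS1 it stood at 436, 455 and 669 CPM in Control 1, 2 and 3 and 386, 1056 and 800.4 CPM in ALP 1, 2 and 3, which overlap. With BCAS1 it stood at 347, 569 and 692 CPM in control and 199, 386 and 330 CPM in ALP, which overlap as well, since Control 1 lay below ALP 2. The log2 difference of the ALP effects was 1.24 (SE 0.19, edgeR adjusted p = 4.39e-05), and DESeq2 did not call it (DESeq2 adjusted p = 0.182). For ROBO2 that difference was 0.83 (SE 0.21, edgeR adjusted p = 0.187), so a rise of ROBO2 particular to nuclei without BCAS1 was not shown.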

How the data were processed

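The authors deposited raw counts, as UMIs per feature and nucleus barcode for each of 6 libraries, made with Cell Ranger and the TreeshrewDB annotation (83605 features). The submitters' processing notes name Cell Ranger 3.1.0 and the matrix headers 6.1.2. Genome build and strand setting are not given in the sources used here. The study kept nuclei with 200 to 2500 genes and under 5% mitochondrial UMIs. Here all deposited barcodes were at or above 200 genes, the upper limits served as an alternative, and no doublet caller was run. Features named as antisense or LINC numbered 22595 and 31776.

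Counts of the chosen nuclei were summed per library and tested with edgeR 4.0.16 (R 4.3.3, quasi-likelihood test, TMM, minimum count 10, Benjamini-Hochberg adjustment). A gene was called at an adjusted p under 0.05 and an absolute log2 difference above 0.25, and in the test of different ALP effects by its adjusted p alone. SE is the log2 difference over the square root of F. Nuclei with and without BCAS1 were compared with the library as a term. Shares were compared by exact permutation over libraries (scipy 1.17.1), and DESeq2 1.42.0 was an alternative. The edgeR steps were tested on simulated data. No 2 libraries were copies of each other, since at most 0.465% of barcodes were shared by a pair and the mean chi-square per gene was at least 17.8.

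The nuclei and the gene lists were chosen with earlier results of these data known, and the OPC-dominant split was added after seeing the data. Named were the 2 to 4 list genes of smallest p (or highest level), all called genes or the largest 8 each way, the 8 next by p, the 10 largest differences each way between nuclei without and with BCAS1, and the 20 genes of highest fold over other nuclei. Names in the OPC-dominant sets follow the same rule, and further names were chosen after their values were seen. Of the list symbols, 10 were not among the features. The split genes and the genes of the rule were left out of the counts. Values of some named genes are not reported here.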

Additional observations from a re-analysis of the deposited data

Results flagged for a closer look

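UBE2E1-AS-3 was the 1 feature whose ALP effect differed between OPC-dominant nuclei without and with BCAS1, by 1.24 on the log2 scale (SE 0.19, edgeR adjusted p = 4.39e-05). Leaving out 1 library at a time gave 1.12 to 1.43, with an edgeR adjusted p of at most 0.0213. It was not called by DESeq2 (adjusted p = 0.182) or in nuclei of 2000 to 10000 UMIs (edgeR adjusted p = 0.864), and the cause was not tested.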

How the results depend on the processing

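The number of genes called between ALP and control was unstable. For the 948 nuclei, where 3 were called, it was 56 with DESeq2, 390 without the low-count filter, 20 with the filters of the study, 0 with a sum of at least 6 UMIs, and 1 without nuclei holding other class markers, with OLIG1, OLIG2 or SOX10 required, without the deepest 5% of nuclei or with BCAS1-positive nuclei kept in. Leaving out 1 library gave 0 to 114 (114 without Control 1, 48 without Control 2, and 0 without Control 3, ALP 1 or ALP 3), and CST3 then ranged in edgeR adjusted p from 0.0173 to 0.441. For the OPC-dominant nuclei, where 2 were called, it was 7 with DESeq2, 1 with upper-quartile scaling, 70 without the filter and 0 to 39 without 1 library (39 without Control 1, 38 without Control 2, 1 without Control 3, 0 without ALP 1 or ALP 3). Differences between nuclei without and with BCAS1 numbered 777 with DESeq2 and 21 with OPC-dominant nuclei alone, against 1456, and 1141 to 1599 without 1 library. In OPC-dominant nuclei they numbered 5 with DESeq2, 40 without the filter, 11 in nuclei of 2000 to 10000 UMIs and 14 to 23 without 1 library, against 21. Genes with a different ALP effect numbered 5 without the filter, 2 without other class markers, 1 in OPC-dominant nuclei and 0 to 3 without 1 library (1 without Control 2, 3 without ALP 3), against 0. In OPC-dominant nuclei they numbered 0 with DESeq2 and at 2000 to 10000 UMIs, 2 without the filter and 1 to 16 without 1 library (16 without ALP 1, 2 without ALP 3), against 1. Between ALP and control 4045 genes were tested in the OPC-dominant nuclei and 6740 in the 948. More were tested in each omission of 1 library, up to 7725 in the 948. The causes of these changes in number were not tested.

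The difference in the share of nuclei without BCAS1 (-0.0679 percentage points) was -1.28 after thinning to 2000 UMIs, turned to 0.294 in OPC-dominant nuclei, to 0.0453 without Control 2 and to 0.120 without ALP 2, and ranged from -0.243 to 0.120 without 1 library. The share of OPC nuclei with BCAS1 kept its direction in every setting, from -9.32 to -1.03 percentage points. Whether the replicate numbers of the labels pair the samples is not given. Correlations of same-numbered deviations were -0.105, 0.0910 and -0.0284 in the 948 nuclei and -0.106, -0.0635 and -0.0334 in the OPC-dominant ones. Those of differently numbered samples ran from -0.0874 to 0.121 and from -0.0235 to 0.108. The deviations were taken from means of only 3 libraries, so these correlations cannot exclude a pairing. With the replicate block 0 genes were called in the 948 nuclei (CST3 adjusted p = 0.0596) and 3 in the OPC-dominant ones, and the sign-flip permutation p of the shares was 0.75 and 0.5 for differences of -0.0679 and -5.81. Of 152 results for named genes 114 kept 1 sign in every setting, and no called difference changed sign. Under an alternative 53 values fell short of the threshold and 41 came past it. The smallest OPC-dominant sum, of Control 2, held 46 nuclei and 85380 UMIs. In simulated data for ALP against control, 59.3% of 2-fold and 98.8% of 4-fold changes were recovered in the OPC-dominant set. For the 948 nuclei these shares were 41.6% and 100%. False calls made up 6.25% of the calls in simulated data for the OPC-dominant set and 2.33% for the 948 nuclei. Whether the recovered shares hold for the real libraries was not tested.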
